A study of Mus musculus with 12 samples.

Results

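The 34 genes described here make sterols and fatty acids or control that synthesis: 5 regulators, 19 genes of the sterol arm, 8 genes of the fatty acid arm, and 2 genes of sterol turnover and export. They were chosen by gene symbol, with earlier results of the cocaine against saline comparison known, so their differences between those groups are given as a description and carry no test of their own. All 34 were found among the 28842 genes of the deposited table, and 33 were among the 13016 genes that passed a filter on low values, a mean of at least 1 FPKM (fragments per kilobase of gene, scaled to library depth). The missing one is Fdps, described with the sterol arm. The tissue was prefrontal cortex of wild-type male C57BL/6J mice, an inbred laboratory strain. Cocaine mice had received 15 mg/kg cocaine and saline mice had received saline from postnatal day 28 to day 42. Both groups then had a pre-test on day 75, 1 mg/kg cocaine before place preference training on days 76 and 77, and a test on day 78, after which tissue was taken within 30 to 60 min. Saline mice were therefore not free of cocaine, and the comparison is of adolescent exposure in animals with the same adult treatment. There were 6 libraries per group. The labels do not say whether each came from a separate mouse, so any p-value measures the spread between these libraries. A further label field gives a time of day 0 for libraries 1, 3 and 5 and of day 5 for libraries 2, 4 and 6 of each group, which matches no step of this schedule; what it marks is not given in the sources used here.

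Sterol and fatty acid synthesis are switched on by the SREBP transcription factors, which are made as inactive precursors in the membrane of the endoplasmic reticulum. When sterols are scarce the escort protein SCAP carries SREBP to the Golgi, where proteases release the active part, and when sterols are plentiful the INSIG proteins hold SCAP back. The SREBP made from Srebf2 favours genes of sterol synthesis and that made from Srebf1 favours genes of fatty acid synthesis. The brain makes its own cholesterol because the blood-brain barrier keeps lipoproteins out, and oligodendrocytes, the cells that wrap axons in myelin, use much of it.

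Depth was 16.9 to 18.8 M reads in cocaine and 16.7 to 19.9 M reads in saline libraries, and mitochondrial transcripts took 3.30 to 5.43% of reads in cocaine and 3.24 to 5.27% in saline libraries. All 8 neuronal markers looked at were present (Rbfox3, Snap25 and others), with summed levels of 155613 to 177916 normalised reads in cocaine and 149993 to 190838 in saline libraries. Some label fields instead name a mesenchymal cell line. Within the groups, the largest source of variation (45.7% of the within-group variance over genes tested) followed gene length. Expressed as a slope of a library's log2 deviations on log10 gene length, it ran between -0.27 and 0.26 in cocaine and between -0.28 and 0.28 in saline libraries. Oligodendrocyte markers varied widely too: the score of 12 oligodendrocyte markers, a mean log2 deviation, ran between -1.04 and 0.96 in cocaine and between -1.51 and 1.23 in saline libraries. In bulk tissue fewer cells of a type and less RNA per cell cannot be told apart.

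Per length, the most abundant member was Scd2, a desaturase that makes monounsaturated fatty acids, at 264 FPKM averaged over the 12 libraries. Next came Hmgcs1, which makes the precursor of mevalonate, at 72.2 FPKM and Cyp46a1, the neuronal enzyme that hydroxylates cholesterol for export out of the brain, at 70.9 FPKM. These were followed by Fads1, a desaturase of polyunsaturated fatty acids, at 65.1 FPKM and Srebf2 at 47.5 FPKM. The deposited length of Fads1 is 3456 bases, whereas the GENCODE M21 annotation gives it 4812 exon bases, so its rank is uncertain. Among the members that passed the filter, Abca1, a pump that exports cholesterol from cells, was lowest at 2.21 FPKM. Next lowest was Lss, which closes oxidised squalene into lanosterol, at 3.46 FPKM. Pairs of related genes differed in level in every library: Scd2 stood 6.04 to 8.45 times above Scd1 per length, Insig1 1.64 to 2.63 times above Insig2, and Srebf2 3.58 to 7.51 times above Srebf1.

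**Figure D1:**
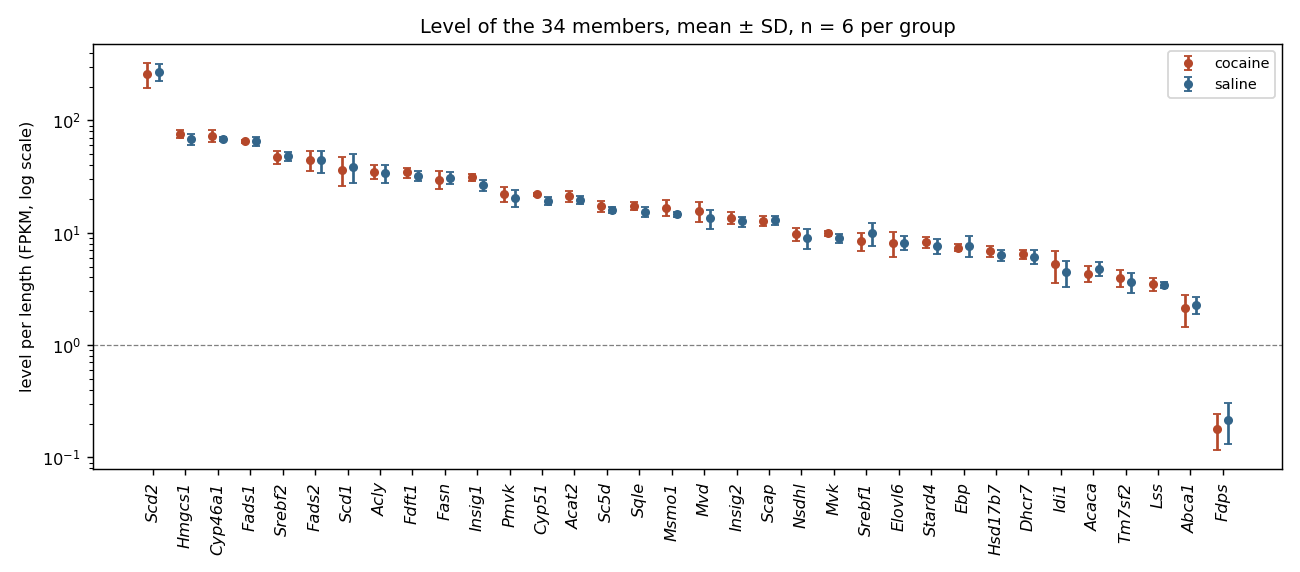
Level per length of the 34 members in FPKM on a log axis, mean ± SD of 6 cocaine and 6 saline libraries, ordered by the mean over all 12. The dashed line marks 1 FPKM, the filter on low values; Fdps, at 0.198 FPKM, is the one member below it.

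The promoters of Insig1, of 3 of the 5 sterol arm genes described by library (Hmgcs1, Cyp51, Msmo1) and of Fasn, to which other members are related within groups, are given here as the window of 250 bases before and 50 after the gene's start, read on the gene's strand 5′ to 3′ (RefSeq, GRCm38.p6). Capitals mark CCAAT, the box bound by NF-Y, or its reverse complement ATTGG, and in Hmgcs1 also a match to TCACNCCAC, a pattern like the sterol regulatory element that SREBPs bind. In Fasn a forward and a reverse CCAAT overlap in one run of capitals.
Insig1, chr5:28071162-28071461, plus strand: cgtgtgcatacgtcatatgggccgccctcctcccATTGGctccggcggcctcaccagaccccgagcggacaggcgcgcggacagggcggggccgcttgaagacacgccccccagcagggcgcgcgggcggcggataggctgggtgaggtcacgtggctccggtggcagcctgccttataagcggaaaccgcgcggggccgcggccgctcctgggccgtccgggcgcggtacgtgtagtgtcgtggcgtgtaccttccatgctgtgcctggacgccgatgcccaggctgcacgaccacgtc
Hmgcs1, chr13:119690101-119690400, plus strand: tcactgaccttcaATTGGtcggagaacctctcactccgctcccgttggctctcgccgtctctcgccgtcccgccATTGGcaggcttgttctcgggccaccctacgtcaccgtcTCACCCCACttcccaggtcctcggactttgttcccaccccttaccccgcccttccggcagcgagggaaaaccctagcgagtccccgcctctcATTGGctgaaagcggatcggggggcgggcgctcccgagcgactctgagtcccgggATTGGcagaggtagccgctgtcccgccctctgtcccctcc
Cyp51, chr5:4104648-4104947, minus strand: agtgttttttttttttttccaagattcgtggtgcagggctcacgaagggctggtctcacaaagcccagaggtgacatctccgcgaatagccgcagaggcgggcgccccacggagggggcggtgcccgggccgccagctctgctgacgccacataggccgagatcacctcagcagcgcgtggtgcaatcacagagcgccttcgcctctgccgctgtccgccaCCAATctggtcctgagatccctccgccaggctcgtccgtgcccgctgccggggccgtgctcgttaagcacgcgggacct
Msmo1, chr8:64733529-64733828, minus strand: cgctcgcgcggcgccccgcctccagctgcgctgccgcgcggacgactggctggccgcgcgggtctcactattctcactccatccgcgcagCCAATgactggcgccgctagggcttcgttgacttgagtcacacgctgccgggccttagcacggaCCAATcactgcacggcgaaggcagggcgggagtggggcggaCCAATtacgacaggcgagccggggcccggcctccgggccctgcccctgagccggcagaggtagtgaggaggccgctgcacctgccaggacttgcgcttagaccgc
Fasn, chr11:120824498-120824797, minus strand: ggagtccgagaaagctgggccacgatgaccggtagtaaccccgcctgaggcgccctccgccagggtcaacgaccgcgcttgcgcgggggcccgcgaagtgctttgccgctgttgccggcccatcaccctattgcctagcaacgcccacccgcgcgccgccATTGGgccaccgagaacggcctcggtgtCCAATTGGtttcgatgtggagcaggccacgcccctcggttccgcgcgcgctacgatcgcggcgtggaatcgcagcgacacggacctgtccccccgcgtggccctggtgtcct

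RefSeq windows were at hand for 27 of the 34 members, 35 windows in all. On either strand CCAAT was found in 22 of the 35 windows (62.9%), against 37.4% of the 32851 mouse windows. Counted by gene, 14 of 15 sterol arm genes (93.3%) and 2 of 5 fatty acid arm genes (40%) had it in a window. Of all 27025 mouse genes with a window, 41.1% had it. The fatty acid arm had no window for Scd1, Scd2 and Fads1. Its Acaca window (chr11:84195188-84195487) lies away from the gene start in the deposited table, chr11:84129672. The GC box GGGCGG stood in 27 windows (77.1%, against 35.7% of all windows) and the E-box CACGTG in 7 (20%, against 7.15%). By gene the GC box had the same counts as CCAAT, 14 of 15 in the sterol arm and 2 of 5 in the fatty acid arm. Of all genes with a window, 38.2% had the GC box. TCACNCCAC was found in 1 window, that of Hmgcs1, where it ends 128 bases before the start; 1.24% of all windows held it. These are matches of letters in a short window, not sites shown to be bound.

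Among the regulators Insig1 had the largest positive difference between cocaine and saline libraries, Srebf1 was lower in cocaine libraries with wide overlap, and the means of Srebf2 and Scap were close together in the groups. No regulator was called by limma after Benjamini-Hochberg adjustment over all genes tested, of which 0% were called. Insig1 (ENSMUSG00000045294, chr5:28071363-28078662), which holds SCAP in the endoplasmic reticulum and is itself switched on by SREBPs, had normalised read counts of 1609.8, 1679.9, 1908, 1665, 1593 and 1782 in cocaine libraries 1 to 6, against 1480.0, 1661, 1336, 1327, 1331 and 1499 in saline libraries 1 to 6. The ranges overlap: 4 of 6 cocaine libraries were above every saline library, and 5 of 6 saline libraries were below every cocaine library. The exception, saline library 2, was above cocaine libraries 1 and 5. Means were 1706 ± 119 in cocaine and 1439 ± 134 in saline libraries (SD, n = 6 each), a difference of 0.25 ± 0.08 (log2, cocaine minus saline, with standard error), or 1.19-fold.

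Insig2, the second INSIG, had 713, 837, 1014, 793, 760.1 and 853 in cocaine libraries 1 to 6, against 764, 751, 913, 882, 690.1 and 641 in saline libraries 1 to 6. Its groups overlapped over most of their range, with cocaine library 3 the highest of all, and the log2 difference was 0.10 ± 0.11. Without cocaine library 3 it was 0.04. Scap, the escort that senses sterols, had 1619.7, 1919.8, 1413, 1843, 1557 and 1678 in cocaine libraries 1 to 6, against 1631, 1869.7, 1770.3, 1927, 1369 and 1585 in saline libraries 1 to 6, and its log2 difference of -0.02 ± 0.10 was much smaller than its standard error. Both groups of Scap contain high and low libraries, so the ranges lie nearly on top of each other.

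Srebf1 had 710.5, 858, 867, 1107, 703 and 763 in cocaine libraries 1 to 6, against 1182, 989, 804, 687, 1151 and 1034 in saline libraries 1 to 6. In the cocaine group library 4 stood above the others, and in the saline group libraries 3 and 4 stood below the others. Its means were 835 ± 151 in cocaine and 974 ± 195 in saline libraries (SD, n = 6 each) and the log2 difference -0.21 ± 0.15. Once the score of oligodendrocyte markers entered as a covariate, the difference of Srebf1 was -0.16. Leaving out the 4 libraries of steepest negative length slope (cocaine 1 and 5, saline 5 and 6) brought that difference to -0.01. Srebf2 had 6042, 7219.5, 4644, 5902, 5416 and 6765 in cocaine libraries 1 to 6, against 5719.9, 6969.9, 6524, 6582, 5253 and 5281 in saline libraries 1 to 6, with the lowest and the highest library both in the cocaine group, and a log2 difference of -0.02 ± 0.11.

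Sterol arm genes were mostly a little higher in cocaine than in saline libraries: 17 of the 18 that passed the filter had a positive difference and 1, Ebp, a negative one. The median difference was 0.12 (log2), with a range of -0.04 to 0.22, whereas over all genes tested the median was 0.01 and 53.7% were positive. None of the 18 was called after adjustment. With libraries weighted by their quality the median was 0.08. The 5 members with a difference of at least 1.5 standard errors, taken in pathway order, were Hmgcs1, Mvk, Sqle, Cyp51 and Msmo1.

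Hmgcs1 (chr13:119690379-119708260) condenses acetyl-CoA units into the precursor of mevalonate. It had 6556, 5919.5, 6498, 5481, 6548 and 5907 in cocaine libraries 1 to 6, against 5098, 6008, 5278, 5021, 6458 and 5212 in saline libraries 1 to 6. Most saline libraries sat at the low end, but saline library 5 was among the highest, and cocaine library 4 was the lowest of its group. Means were 6152 ± 448 in cocaine and 5513 ± 583 in saline libraries (SD, n = 6 each) and the log2 difference 0.16 ± 0.08. Mvk, mevalonate kinase, had 478, 499.8, 445, 449.7, 476 and 438 in cocaine libraries 1 to 6, against 400.2, 450.3, 471, 392, 366 and 455 in saline libraries 1 to 6. All 6 cocaine libraries of Mvk were above the saline median, and 3 of them were above every saline library. Its log2 difference was 0.14 ± 0.08.

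Sqle, squalene epoxidase, which adds oxygen to squalene before ring closure, had 1565, 1880.5, 1915, 1593, 1569 and 1692 in cocaine libraries 1 to 6, against 1301, 1784, 1577, 1636, 1329 and 1430.2 in saline libraries 1 to 6. Again all 6 cocaine libraries were above the saline median, but saline library 2 was higher than 4 of them. The log2 difference was 0.18 ± 0.09. Cyp51 (chr5:4081145-4104746), which demethylates lanosterol, had 1665, 1757, 1785, 1616, 1659 and 1745 in cocaine libraries 1 to 6, against 1454, 1638, 1494, 1334, 1609 and 1442 in saline libraries 1 to 6. Its groups came nearest to separation among the sterol genes, with 5 of 6 cocaine libraries above every saline library and 5 of 6 saline libraries below every cocaine library. Means were 1705 ± 66.8 in cocaine and 1495 ± 113 in saline libraries (SD, n = 6 each), a log2 difference of 0.19 ± 0.07 or 1.14-fold.

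Msmo1, the next demethylating enzyme on the route, had 1644, 1788, 2366, 1644, 1733 and 1661 in cocaine libraries 1 to 6, against 1488, 1653, 1587, 1512, 1646 and 1557 in saline libraries 1 to 6. Cocaine library 3 stood far above the rest, and the remaining cocaine libraries lay close to the upper saline values. Means were 1806 ± 280.2 in cocaine and 1574 ± 68.2 in saline libraries (SD, n = 6 each) and the log2 difference was 0.19 ± 0.09, or 0.11 without cocaine library 3. With libraries weighted by their quality the differences of Hmgcs1, Mvk, Sqle and Msmo1 were 0.10, 0.08, 0.10 and 0.12.

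**Figure D2:**
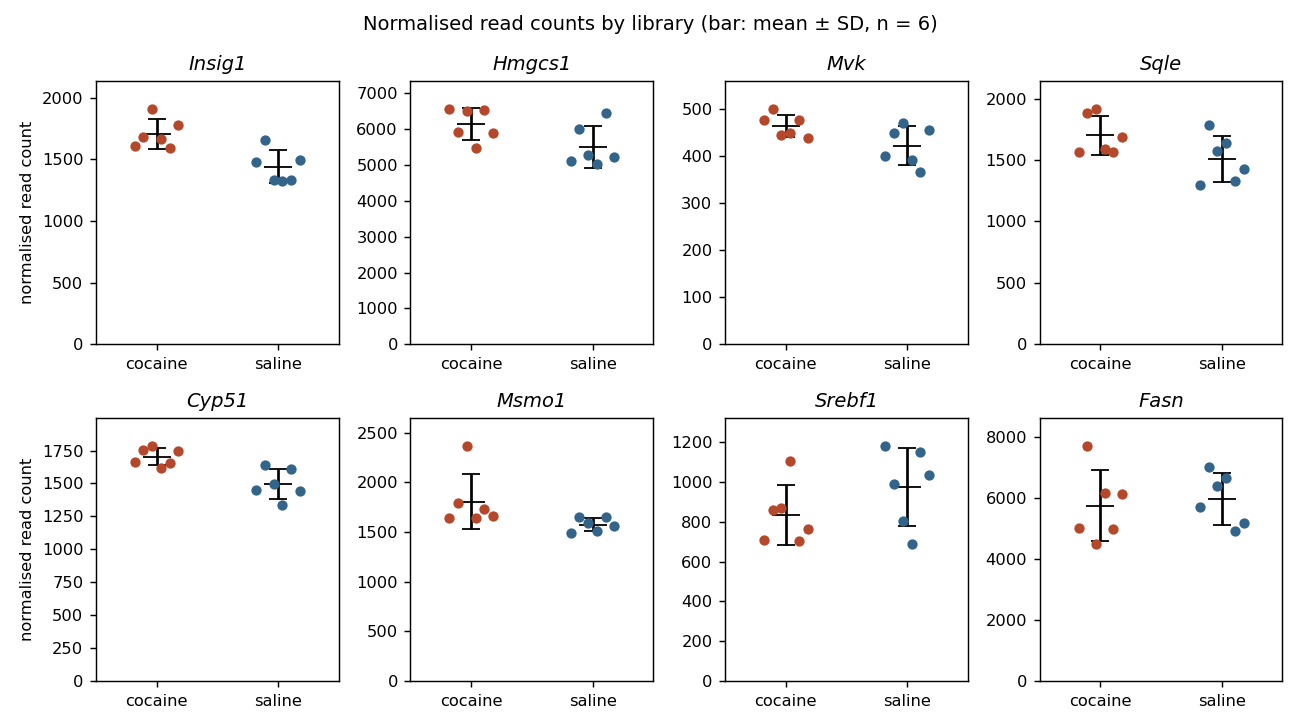
Normalised read counts of 8 members, 1 point per library, cocaine left and saline right in each panel, axes starting at 0; bars show mean ± SD (n = 6). In Cyp51 5 of the 6 cocaine points lie above every saline point, Msmo1 has 1 high cocaine point at 2366, and the groups of Srebf1 and Fasn overlap.

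The other 13 sterol arm genes that passed the filter had differences smaller than 1.5 standard errors. Idi1, which isomerises isopentenyl diphosphate, and Mvd, which decarboxylates mevalonate diphosphate, had the largest of them at 0.22 ± 0.24 and 0.21 ± 0.14. Tm7sf2, a sterol reductase, stood at 0.14 ± 0.13, and Nsdhl and Hsd17b7, which act with Msmo1 in removing methyl groups, at 0.12 ± 0.12 and 0.12 ± 0.11. Pmvk, Fdft1, Acat2, Sc5d and Stard4 lay between 0.10 and 0.11; these are phosphomevalonate kinase, squalene synthase, the thiolase that makes acetoacetyl-CoA, a sterol desaturase and a carrier of sterols between membranes. Nearest to 0 were Dhcr7, the reductase that finishes cholesterol, at 0.07 ± 0.10, Lss at 0.01 ± 0.09, and Ebp, a sterol isomerase, at -0.04 ± 0.12.

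Fdps, which makes farnesyl diphosphate, was listed at 9.19 to 22.2 normalised reads in cocaine and 5.06 to 23.1 in saline libraries, far below the enzymes on either side of it. In GENCODE M21, 1124 of its 4208 exon bases lie in exons of Gm43738 on the same strand, so its level is uncertain and no difference is read from it. Tm7sf2 shares 532 exon bases with Vps51 on its own strand. On the opposite strand, Fdft1 shares 774 exon bases with Ctsb, Scap 985 and Hmgcs1 557 with transcripts that have only clone or model names, and Cyp51 166 with Akap9. Whether counting used strand is not given in the sources used here, so reads of such partners cannot be told apart.

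The fatty acid arm showed no common direction: 3 of its 8 members had a positive and 5 a negative difference, with a median of -0.05 and a range of -0.15 to 0.04. None was called after adjustment. Fasn (chr11:120805846-120824547), the synthase that builds palmitate, had 5020.2, 7707, 4498, 6163, 4982 and 6133 in cocaine libraries 1 to 6, against 5705, 7027, 6382, 6664, 4910.0 and 5169 in saline libraries 1 to 6. Its lowest and highest libraries were both in the cocaine group, and saline libraries filled the range between them. Means were 5750.5 ± 1169 in cocaine and 5976 ± 849 in saline libraries (SD, n = 6 each) and the log2 difference -0.07 ± 0.13. Without cocaine library 1 the median of the arm was 0.03 and 6 of 8 members were positive.

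Acaca, which makes malonyl-CoA for fatty acid chains, was at -0.15 ± 0.14, and Acly, which supplies their acetyl-CoA from citrate, at 0.04 ± 0.14. Scd1 and Scd2 stood at -0.10 ± 0.21 and -0.09 ± 0.17, and Elovl6, which lengthens palmitate, at -0.03 ± 0.17. Scd1 and Scd2 are close paralogs, and how reads that match both were counted is not known. The desaturases Fads1 and Fads2 were at 0.01 ± 0.06 and 0.01 ± 0.17. The 5 libraries with the fewest Scd2 reads did not belong to one group: cocaine libraries 1 and 5 had 15998 and 18636, and saline libraries 4, 6 and 3 had 22375, 22462 and 23864. Among the members that passed the filter Fads1 varied least, with a within-group SD of 0.07 (log2), and Idi1 most, at 0.48. Typical spread also differed by arm, with a median SD of 0.292 in the fatty acid arm and 0.163 in the sterol arm, beside 0.225 over all genes tested.

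Of the turnover genes, Cyp46a1 had 4949.6, 4167, 3662, 3736, 4528 and 4278 in cocaine libraries 1 to 6, against 3812, 4177, 3934, 4051, 3830.2 and 4078 in saline libraries 1 to 6. Cocaine library 1 was the highest and cocaine libraries 3 and 4 the lowest, so the saline values lay inside the cocaine range, and the log2 difference was 0.08 ± 0.08. Abca1, a target of the liver X receptors that sense excess sterol, had 247, 509.9, 487, 485, 227 and 388 in cocaine libraries 1 to 6, against 429, 409.9, 491, 529.9, 335 and 325 in saline libraries 1 to 6. The saline libraries again lay mostly inside the cocaine range, which was widened by low counts in cocaine libraries 1 and 5. Its log2 difference was -0.15 ± 0.21. Without the 4 libraries of steepest negative length slope both differences had the other sign, at -0.01 for Cyp46a1 and 0.01 for Abca1.

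**Figure D3:**
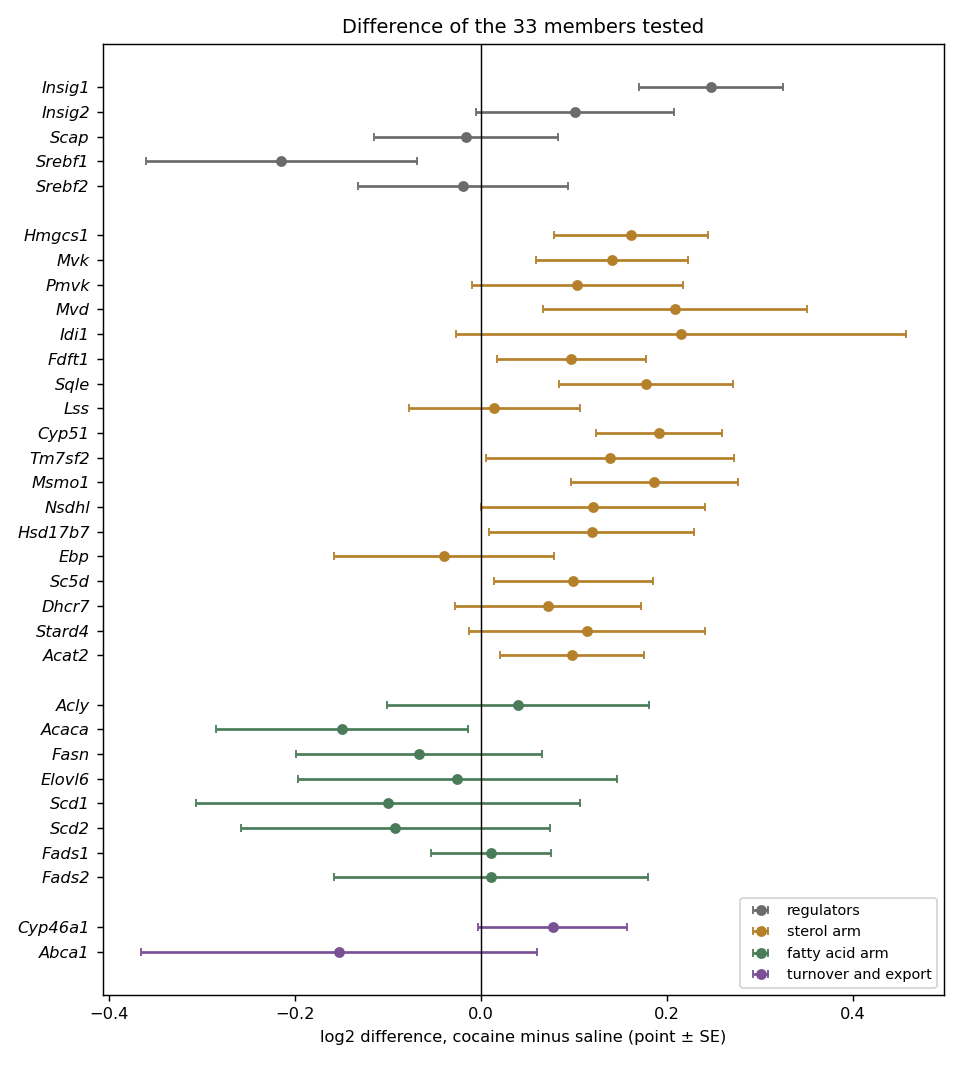
Difference of the 33 members tested, cocaine minus saline on the log2 scale, as point ± standard error, in colours by role. In the sterol arm 17 of 18 points lie right of 0, and the fatty acid arm spreads on both sides with 3 of 8 to the right.

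Across members the limma test called 0 of 33 at an adjusted p of 0.05, and it called 0 of all 13016 genes tested (0%). At an unadjusted p under 0.05 there were 2 members, Insig1 and Cyp51, both higher in cocaine, beside 149 of all genes tested (1.14%) in either direction and 88 (0.676%) in that direction. Since the members were chosen with this comparison known, nothing is read from that count. Groups did not overlap for 0 of 33 members, beside 10 of all genes tested (0.0768%). On read counts, edgeR's quasi-likelihood test called 0 members after adjustment (2 at an unadjusted p under 0.05) and 0 of all 13016 genes (155 unadjusted). DESeq2 called 0 members (3 unadjusted) and 3 of 28827 genes (428 unadjusted). The authors' deposited table has an adjusted p under 0.05 for 3 of 28842 genes (0.0104%), none of them a member.

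The rest of the pathway, 45 listed genes of which 41 passed the filter, gave no call either, and 20 were higher and 21 lower in cocaine libraries with a median of -0.01. Further genes of sterol synthesis and sensing were positive in 9 of 14, further genes of fatty acid synthesis and lipid assembly in 9 of 14, and genes of sterol transport and esterification in 2 of 13. Of those with the largest difference relative to its error, Hacd3, which takes part in lengthening fatty acids, averaged 3176 ± 159 in cocaine and 2992 ± 105 in saline libraries (SD, n = 6 each), a log2 difference of 0.09 ± 0.06. Mbtps1, the first of the Golgi proteases that cut SREBPs, was at -0.11 ± 0.08. Rnf139, a ubiquitin ligase of the endoplasmic reticulum, was at 0.13 ± 0.13 and Star, which brings cholesterol into mitochondria, at -0.12 ± 0.12.

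The arms were also set side by side within each library. An arm's score in a library averages, over its members, how far the log2 value lies from that gene's mean over all libraries. The sterol score was 0.06 ± 0.05 in cocaine and -0.06 ± 0.08 in saline libraries, and the fatty acid score -0.02 ± 0.26 in cocaine and 0.02 ± 0.16 in saline libraries (SD, n = 6 each). Sterol scores were above 0 in 5 cocaine libraries and below 0 in 5 saline libraries, with cocaine library 4 (-0.01) and saline library 2 (0.08) as the exceptions. Fatty acid scores spread over both groups, lowest in cocaine library 1 (-0.35) and highest in cocaine library 2 (0.32). By the time label, cocaine libraries 1, 3 and 5 (day 0) had -0.35, -0.07 and -0.27 and cocaine libraries 2, 4 and 6 (day 5) had 0.32, 0.17 and 0.05, without overlap. In saline libraries 1, 3 and 5 it was 0.13, 0.06 and -0.14, and in saline libraries 2, 4 and 6 it was 0.20, 0.09 and -0.20, so there the labelled days overlapped. The length slope split the cocaine libraries in the same way. It was -0.27, -0.03 and -0.21 in cocaine libraries 1, 3 and 5 and 0.26, 0.06 and 0.12 in cocaine libraries 2, 4 and 6. In saline libraries the slopes of the labelled days overlapped. Whether the score follows the slope or the label was not tested. Each group holds 3 libraries of each day, so that label as a covariate could not change the differences between cocaine and saline libraries. Sterol minus fatty acid score was 0.08 ± 0.26 in cocaine and -0.08 ± 0.16 in saline libraries, a group difference of 0.17 that is smaller than the SD within the cocaine group. Leaving out cocaine library 1 brought it to 0.11. With library weights it was also 0.11.

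The lowest fatty acid scores stood in the libraries with the steepest negative length slope. These 4 libraries, cocaine 1 and 5 (-0.27 and -0.21) and saline 5 and 6 (-0.28 and -0.25), had fatty acid scores of -0.35, -0.27, -0.14 and -0.20, the lowest of their groups. Their sterol scores were 0.06, 0.03, -0.07 and -0.04, inside the range of their groups. Gene lengths ran from 1508 (Fads2) to 17074 bases (Acaca) in the fatty acid arm. In the sterol arm they ran from 1713 (Pmvk) to 10787 bases (Lss). Whether length accounts for the low scores was not tested. With the slope as a covariate the median differences were 0.13 in the sterol arm and -0.02 in the fatty acid arm.

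**Figure D4:**
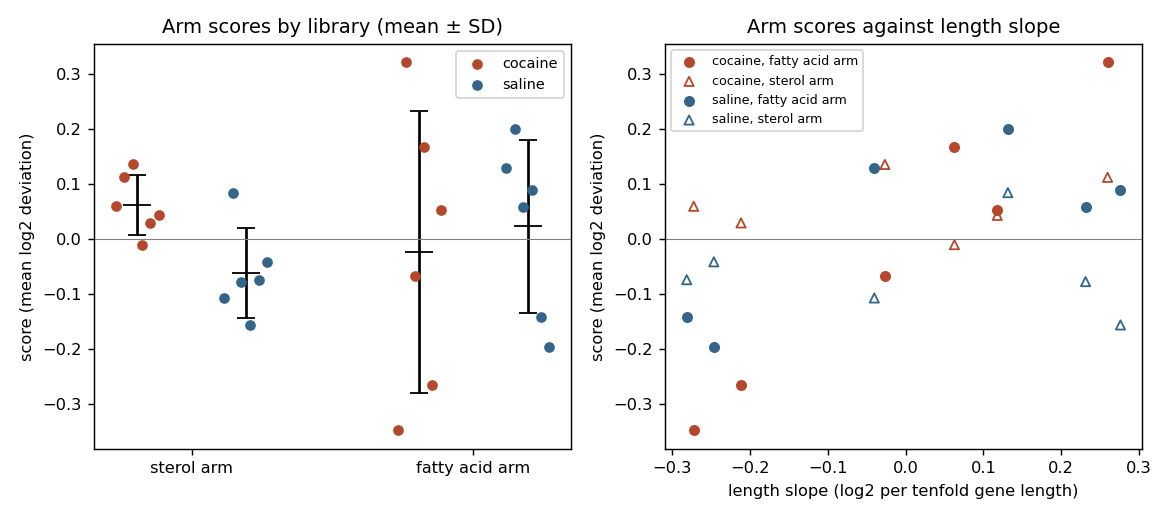
Left, arm scores (mean log2 deviation of the members) by library, with mean ± SD (n = 6), for cocaine and saline. Right, the same scores against each library's length slope (log2 deviation per unit of log10 gene length); filled fatty acid points lie at -0.14 or lower for the 4 steepest negative slopes, open sterol points do not.

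Relations between members were tested within groups, which does not use the difference between cocaine and saline libraries: each library's deviation from its group mean on the log2 scale was correlated over the 12 libraries, with two-sided permutation p-values adjusted over all 97 relations computed. The anchors described are Fasn for the fatty acid arm and Hmgcs1 for the sterol arm. Genes of one arm share libraries, depth and length slope, so the relations are not independent of each other.

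Fasn passed an adjusted p of 0.05 with 6 of 32 members, or 13 without cocaine library 3: 3 of its 7 relations within the fatty acid arm (Fads2, Acaca, Acly), the regulators Srebf2 and Scap, and Acat2 of the sterol arm. The smallest of these r, without sign, was 0.816, and 12.1% of 13011 other genes tested had an r with Fasn at least as large, beside 18.8% of the members. A large r with Fasn was thus common among all genes, and nothing particular to the pathway is read from the count. The highest r was with Fads2, at 0.955 (Spearman's rho 0.979, permutation p = 1e-05, the smallest the permutations can give, adjusted p = 0.000485, r = 0.963 without the 2 libraries farthest from the median of Fasn). Acaca followed at 0.947 (rho 0.944, permutation p = 5e-05, adjusted p = 0.00155, r = 0.926 without those 2 libraries) and Acly at 0.932 (rho 0.916, permutation p = 0.00011, adjusted p = 0.00178, r = 0.977 without them). Srebf2 had r = 0.920 (rho 0.930, permutation p = 0.00034, adjusted p = 0.00471, r = 0.881 without them) and Scap r = 0.919 (rho 0.965, permutation p = 8e-05, adjusted p = 0.00155, r = 0.905 without them). The remaining fatty acid genes did not pass: Elovl6 had r = 0.657 (rho 0.545, permutation p = 0.0372, adjusted p = 0.172, r = 0.820 without them), and the r of Scd2, Scd1 and Fads1 were 0.308, 0.154 and -0.150 (adjusted p 0.609, 0.825 and 0.777). In the other direction Acat2 had r = -0.816 (rho -0.825, permutation p = 0.00338, adjusted p = 0.0299, r = -0.738 without them). With the length slope removed as well, Fads2 (r = 0.847, rho 0.909, permutation p = 0.00012, adjusted p = 0.00233, r = 0.900 without the 2 farthest libraries) and Insig2 (r = -0.962, rho -0.944, permutation p = 1e-05, adjusted p = 0.000242, r = -0.884 without them) passed, and 2.95% of all other genes tested had an r at least as large as that of Fads2. Before that removal Insig2 had r = 0.245 (rho 0.266, permutation p = 0.448, adjusted p = 0.658), or 0.722 without the 2 farthest libraries. Once it was removed, Srebf2, Acaca, Acly and Scap kept r of 0.847, 0.814, 0.787 and 0.774 but no longer passed (adjusted p between 0.0903 and 0.0982). When the 2 farthest libraries were also left out, these r were 0.567, 0.332, 0.739 and 0.586 in the same order.

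With the mean of each group and labelled day removed, and permuting within them (1296 arrangements), none of the 32 relations of Fasn passed. So few arrangements bound how small a permutation p can be. With adjustment over 97 relations, a relation alone at that bound cannot reach an adjusted p under 0.05. Fads2 then had r = 0.967 (rho 0.972, permutation p = 0.0009, adjusted p = 0.0558, r = 0.936 without the 2 farthest libraries), Srebf2 r = 0.879 (rho 0.797, permutation p = 0.00155, adjusted p = 0.0558, r = 0.804 without them) and Acaca r = 0.925 (rho 0.930, permutation p = 0.0086, adjusted p = 0.119, r = 0.845 without them). The r of Fads2, Srebf2 and Acaca stayed within 0.05 of those above. Acly and Scap had r of 0.915 and 0.895 (adjusted p 0.136 and 0.0764). Acat2 had r = -0.602 (permutation p = 0.0677, adjusted p = 0.436), or -0.319 without the 2 farthest libraries. Given the bound on p, not passing in this setting is not read as the loss of a relation. Whether the labelled day plays a part was not tested.

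Hmgcs1 had few relations past the threshold. It passed with 2 of 32 members, Nsdhl at r = 0.851 (rho 0.706, permutation p = 0.0021, adjusted p = 0.0226, r = 0.785 without the 2 libraries farthest from the median of Hmgcs1) and Lss at r = -0.666 (rho -0.566, permutation p = 0.00368, adjusted p = 0.0299, r = -0.803 without them). By Spearman's rho neither passed, with adjusted p of 0.190 and 0.217. Fdft1 (r = 0.720, rho 0.566, permutation p = 0.0107, adjusted p = 0.0745), Cyp51 (r = 0.700, rho 0.769, permutation p = 0.0272, adjusted p = 0.132) and Ebp (r = 0.662, rho 0.545, permutation p = 0.0462, adjusted p = 0.202) were next. Without the 2 farthest libraries these r were 0.789, 0.466 and 0.418. None of the 32 passed with the length slope removed, or without cocaine library 4, saline library 1 or saline library 5, whereas 4 passed without saline library 6. Of all other genes tested, 7.37% had an r with Hmgcs1 at least as large, without sign, as that of Lss, beside 12.5% of the members. With each group and labelled day removed none passed, under the same bound on p. Nsdhl then had r = 0.813 (rho 0.783, permutation p = 0.093, adjusted p = 0.447, r = 0.692 without the 2 farthest libraries). Cyp51 had the largest r in that setting, 0.834 (rho 0.776, permutation p = 0.00672, adjusted p = 0.109, r = 0.737 without them). Lss, Fdft1 and Ebp had r of -0.455, 0.595 and 0.692 (adjusted p 0.505, 0.539 and 0.505). With only group means removed, 9 of the 17 relations of Hmgcs1 within the sterol arm were positive.

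**Figure D5:**
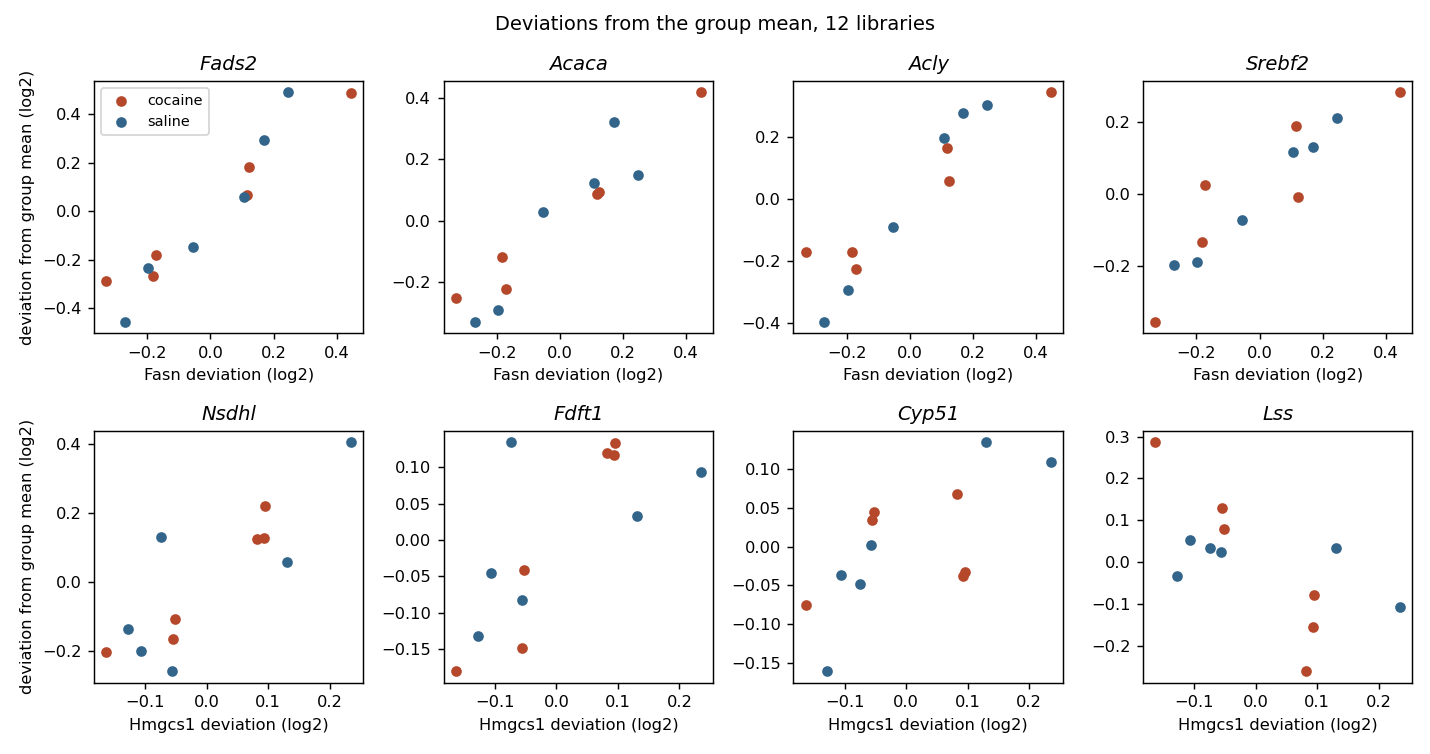
Deviation from the group mean (log2) of 4 members against Fasn (top row) and of 4 members against Hmgcs1 (bottom row), 1 point per library, cocaine and saline in separate colours. Fads2 rises along Fasn with r = 0.955 and points of both groups lie along the same line, whereas points scatter more widely around Hmgcs1, where Nsdhl has r = 0.851 and Lss r = -0.666.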

How the data were processed

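Total RNA (1 µg) of mouse prefrontal cortex was made into 12 libraries (Illumina TruSeq), per the protocols in the labels. HISAT2 2.0.5 and the human build hg38 are named in the submitters' processing notes. Neither counter nor strand setting is given in the sources used here. The file names mouse genes. Of 28842 IDs, GENCODE M21 holds 28805, with identical start and end for 28041, and positions are therefore GRCm38. The single table that the authors deposited is named for FPKM, yet no length enters its values: the deposited signal of each library is the read count over 1 size factor, since 100% of values, within 0.01 read, were whole numbers of reads after rescaling. Per the file headers it also holds group means, a log2 fold change, a p-value, an adjusted p-value and gene lengths. These values are called normalised read counts, and FPKM was computed from them with the gene length and the column sum. No library was a duplicate of another (correlation over genes 0.948 to 0.991).

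Groups came from the treatment labels. Differences are from limma 3.58.1 (variance trend, no covariates) in R 4.3.3 on log2(value + 1), a scale that compresses low genes. Tests were two-sided, with Benjamini-Hochberg adjustment over 13016 genes. The design allowed for values not divided by length, and its test was kept. Reads recovered from the values were tested with edgeR 4.0.16 and DESeq2 1.42.0 as alternatives. Relations used 100000 permutations within groups. Members and lists were chosen with earlier results of these data known. Regulators, turnover genes, anchors and arm members with a difference of at least 1.5 SE are given by library, and the 5 closest relations per anchor are named. Of the other pathway genes the 5 with the largest difference over SE were to be named, and one of them is not reported here, nor are the relations to one anchor gene, which count among the 97. Scripts were tested on simulated data.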

Additional observations from a re-analysis of the deposited data

Results flagged for a closer look

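One value stood apart from its group: Msmo1 in cocaine library 3, at 2366 normalised reads, where its gap to the next cocaine library was 0.800 of the whole range of the group, above the 95% critical value of Dixon's test for 6 libraries. In all 74 groups of 6 libraries were looked at, and chance flags about 5% of them. The same library was also the highest of all 12 in Insig1, Insig2, Sqle, Cyp51, Sc5d and Hsd17b7, none of which met that criterion.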

How the results depend on the processing

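In 25 settings 820 differences of members were computed again, and 0 moved by more than the SD between libraries. Leaving out 1 of the 6 libraries of a group cannot move a difference that far. The replicate block and the time label are balanced between groups and cannot move it at all. Little is therefore read from that count. Of the 820 differences, 45, from 12 members, had the other sign than in the main fit. There were 21 members with one sign in every setting, among them 16 of the 18 sterol arm genes but 2 of 8 in the fatty acid arm and 3 of 5 regulators. The sterol median was 0.10 to 0.16 on leaving out 1 library and 0.08 with library weights, and 0.12 with Insig1 counted in that arm; the regulator median was -0.06 to 0.04. The fatty acid median was -0.14 to 0.03 and the number of its members higher in cocaine 1 to 6 on leaving out 1 library (6 without cocaine 1, 1 without cocaine 2, saline 5 or saline 6). The arm score difference was 0.11 to 0.23.

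Members at an unadjusted p under 0.05 were 2 to 4 on leaving out 1 library (4 without cocaine 4) and 5 with the length slope as covariate. Members whose groups did not overlap were 0 to 2 on leaving out 1 library (1 without cocaine 4, 2 without saline 2) and 1 without the 4 libraries of steepest negative length slope. Relations past an adjusted p of 0.05 were 0 to 4 for Hmgcs1 and 5 to 13 for Fasn (13 without cocaine 3) on leaving out 1 library, 0 for Hmgcs1 and 2 for Fasn with the length slope removed, and 0 for both with the time label removed. With the time label removed there were 1296 arrangements, too few for a relation alone at the smallest p to pass. Beyond that, the cause of these shifts was not tested. The length slope settings, the count of Insig1 in the sterol arm and relations with the slope or the time label removed were chosen after seeing the data.

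Cocaine and saline libraries share replicate numbers, but same-numbered libraries did not deviate together in every pair (correlations -0.106, 0.435, 0.003, -0.119, 0.389 and -0.400 for numbers 1 to 6), so the numbers were not taken as pairs. With the replicate number as a block, 0 members were called and 3 members had an unadjusted p under 0.05. Each number has 1 library per group, so the block could not change the sterol median of 0.12.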

Other observations

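Ttr, the main secreted protein of the choroid plexus, was at 11208 normalised reads in saline library 5 and at 0 to 13.2 in each of the other 11 libraries. The summed markers of astrocytes were 45381 to 62839 in cocaine and 48793 to 59662 in saline libraries and those of microglia 4037 to 4284 in cocaine and 4164 to 4802 in saline libraries. Of 6 markers of the mesenchymal line that a label field names, 3 passed the filter and none was at 0 throughout, with a sum of 12259.8 to 18491 in cocaine and 12987 to 15672 in saline libraries. Most of that sum was Thy1, also a neuronal gene, at 11388 to 17547 in cocaine and 12056 to 14729 in saline libraries. Eng was at 396 to 578 in cocaine and 448 to 559 in saline libraries, Col1a2 at 198 to 345 in cocaine and 191 to 263 in saline libraries, and Prrx1 at 63.0 to 98.8 in cocaine and 68.3 to 125 in saline libraries. The lowest Col1a1 was 78.7 in cocaine and 63.7 in saline libraries, and Twist1 was at 1.05 to 13.9 in cocaine and 3.19 to 12.9 in saline libraries.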
